A study of Mus musculus with 6 samples.

Results

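T-tubule, caveola and membrane repair genes are described here as 10 members, *Cav1*, *Cav2*, *Cav3*, *Dysf*, *Myof*, *Bin1*, *Mtm1*, *Ehd2*, *Ano5* and *Trim72*, which were chosen by gene symbol from the 46078 genes of the count table. RNA was sequenced from C2C12 cells, an immortalized mouse myoblast line, after 2 days of differentiation by serum withdrawal with an insulin, transferrin and selenium supplement. The 3 KO libraries (KO1, KO2 and KO3) came from cells in which *Hnrnpa2b1*, the gene of an RNA-binding protein, had been targeted with CRISPR-Cas9, and the 3 WT libraries (WT1, WT2 and WT3) from WT cells. The methods describe puromycin selection of transfected cells and 3 independent clones of each genotype isolated with cloning rings, without stating which clone gave which library, and the control on the study's Western blots was cells treated with a scrambled guide. All libraries come from 1 line, whether the 3 libraries of a genotype are different clones is not stated, and p-values measure the spread between these libraries.

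T-tubules are tubes of surface membrane that carry the action potential into a muscle fibre, and caveolae are flask-shaped pits of the same membrane, built from caveolins and cavins, that contribute to young T-tubules in developing muscle. When the surface membrane is torn, calcium entering the cell triggers the fusion of vesicles into a patch, a process that involves ferlins, annexins and *Trim72*. Mutations in the human counterparts of *Cav3*, *Dysf*, *Ano5*, *Bin1* and *Mtm1* cause inherited muscle diseases.

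Levels are given as CPM, counts relative to a library's total after TMM scaling (the trimmed mean of M-values method), and as TPM, which corrects for transcript length. The libraries held 33605258 to 40558740 counted reads. The targeted gene itself, *Hnrnpa2b1*, stood at 159, 195 and 249 CPM in KO1 to KO3, against 225, 229 and 252 CPM in WT1 to WT3, with overlapping genotypes (log2 fold change of KO over WT −0.23, SE 0.18, adjusted p = 0.381 by edgeR), so its RNA does not check the labels. Loss of the protein was assessed in the study by immunofluorescence and Western blotting of the KO clones, which are not analysed here. KO libraries differed more among themselves than WT libraries, with a chi-square per degree of freedom of 154 to 171 between KO pairs and 46.6 to 78.3 between WT pairs. In these bulk libraries, fewer cells of a type and less RNA per cell cannot be told apart.

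All 10 members passed the filter on low counts, and 6 of them passed the threshold of edgeR's quasi-likelihood test (Benjamini-Hochberg adjusted p under 0.05), against 22.7% of the 14828 genes tested. *Cav1*, *Cav2*, *Ehd2* and *Myof* were higher in KO than in WT, where 12.1% of tested genes were called higher. *Bin1* and *Ano5* were lower, where 10.6% of tested genes were called lower. In CPM the genotypes did not overlap for 7 members, those 6 and *Dysf*, and for 44.3% of all tested genes. In TPM they did not overlap for those 6, while *Dysf* overlapped. The TPM share over all tested genes is not given here, so this count has no baseline. *Cav3*, *Dysf*, *Trim72* and *Mtm1* did not pass, and all 4 had a log2 fold change below 0. The median log2 fold change was −0.25 over the 10 members and 0.03 over all tested genes.

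**Figure D1:**
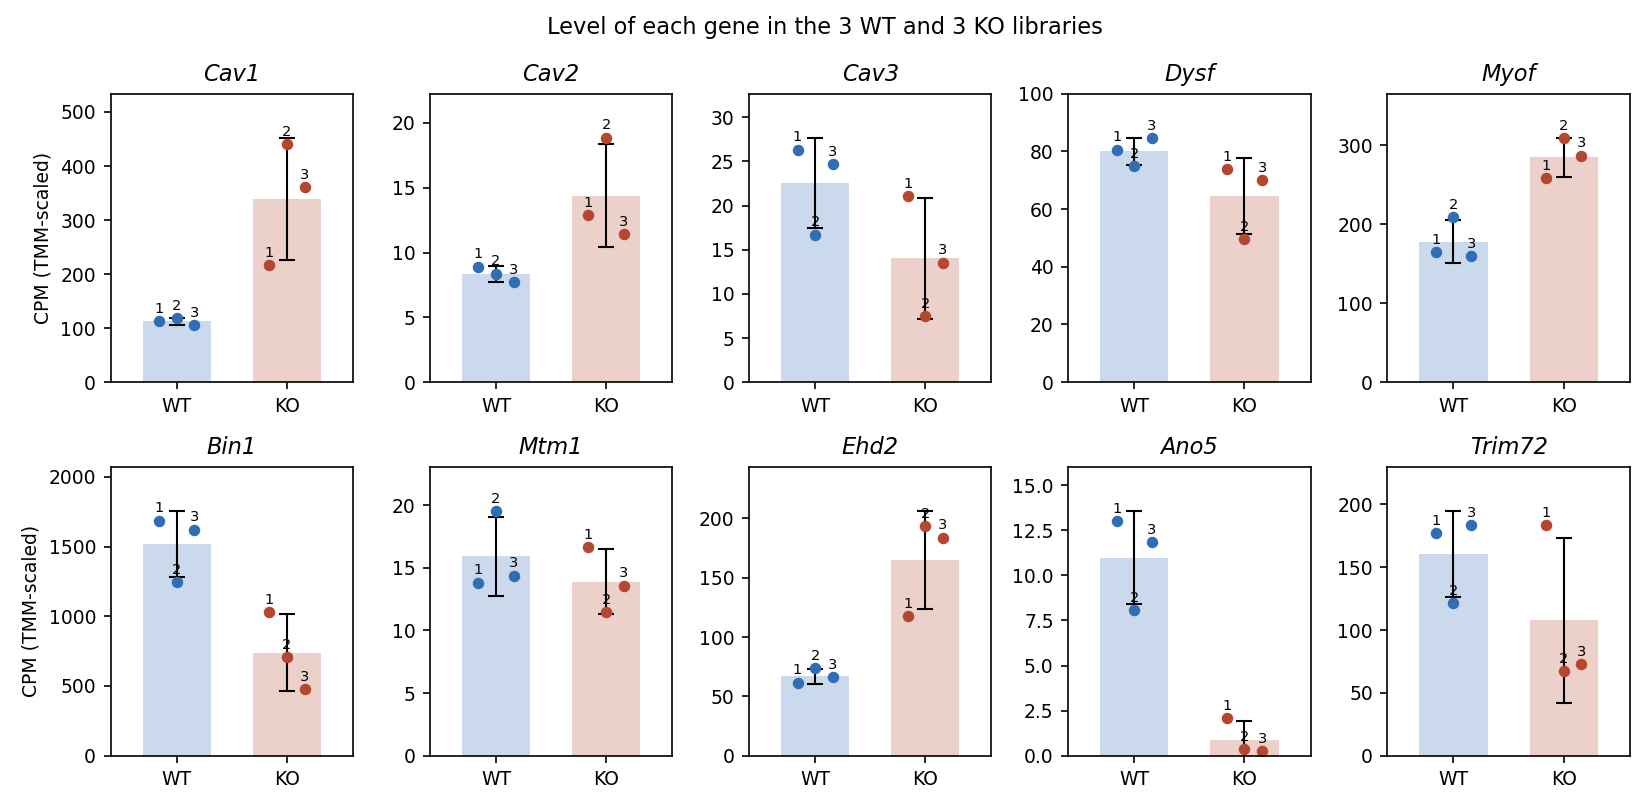
CPM (TMM-scaled, linear axis from 0) of each of the 10 genes in the 3 WT and 3 KO libraries; points are libraries with their replicate number, bars are means and error bars SDs. All 3 KO libraries lie above all 3 WT libraries for *Cav1*, *Cav2*, *Ehd2* and *Myof* and below them for *Bin1*, *Ano5* and, on this scale, *Dysf*.

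**Figure D2:**
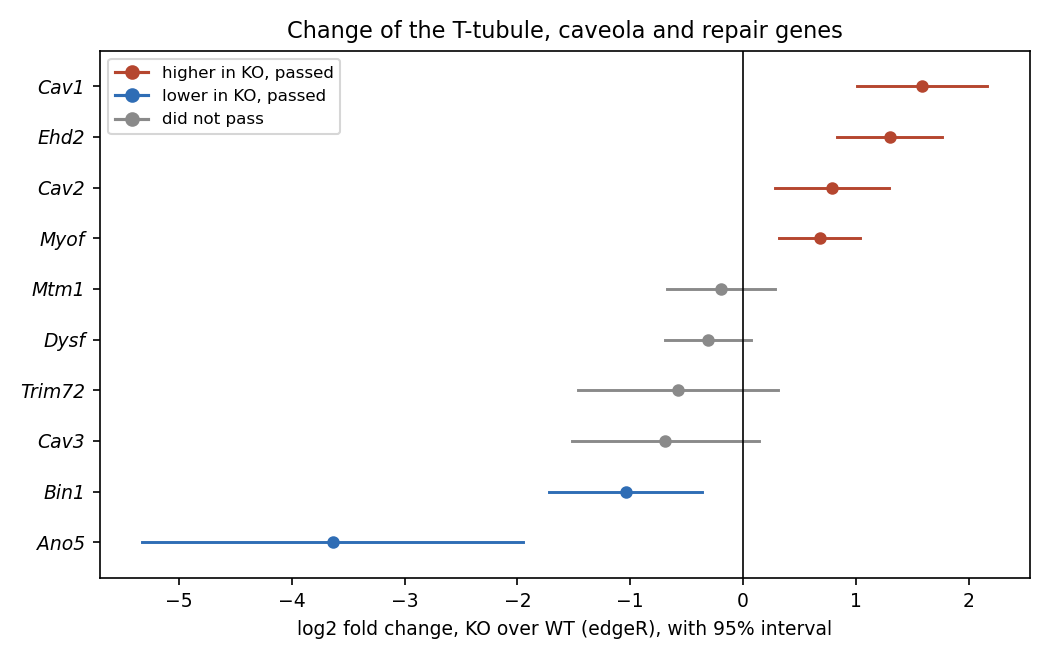
Log2 fold change of KO over WT for the 10 genes from edgeR, with 95% intervals; colours mark the genes that passed the test. The estimates run from −3.64 for *Ano5* to 1.59 for *Cav1*.

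The caveolins are the membrane-inserted building blocks of caveolae. *Cav1* (ENSMUSG00000007655, chr6:17306335-17341452, plus strand, GRCm38) forms the caveolae of most tissues outside striated muscle. It measured 216, 440.0 and 361 CPM in KO1 to KO3, against 113, 119 and 106 CPM in WT1 to WT3. Every KO library exceeded every WT library, with KO1 the lowest of the 3. Mean CPM was 3.01-fold higher in KO, and the log2 fold change was 1.59 (SE 0.25, 95% interval 1.01 to 2.17, adjusted p = 0.0059, edgeR). *Cav1* passed with each library left out in turn.

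*Cav2* (ENSMUSG00000000058, chr6:17281185-17289115, plus strand), whose product assembles with that of *Cav1*, ends 17219 bases before the start of *Cav1*. It measured 12.9, 18.9 and 11.4 CPM in KO1 to KO3, against 8.91, 8.38 and 7.73 CPM in WT1 to WT3. KO2 stood highest, and the lowest KO library lay above the highest WT library. This gave a log2 fold change of 0.79 (SE 0.22, adjusted p = 0.037, edgeR). The adjusted p was between 0.0742 and 0.135 when KO2, WT1, WT2 or WT3 was left out, with a log2 fold change of 0.55 without KO2 and of 0.71 to 0.83 without a WT library.

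*Cav3* (ENSMUSG00000062694, chr6:112459501-112472871, plus strand) is the caveolin of striated muscle. It measured 21.1, 7.44 and 13.5 CPM in KO1 to KO3, against 26.3, 16.7 and 24.7 CPM in WT1 to WT3. KO1 lay within the WT range and the other two KO libraries lay below it. The log2 fold change was −0.69 (SE 0.36, 95% interval −1.52 to 0.14) and did not pass (adjusted p = 0.193, edgeR). It was −1.11 without KO1 (adjusted p = 0.024) and −0.38 without KO2 (adjusted p = 0.341).

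*Ehd2* (ENSMUSG00000074364, chr7:15946977-15967567, minus strand) encodes an ATPase that sits at the neck of caveolae and holds them at the surface. It measured 118, 194 and 184 CPM in KO1 to KO3, against 61.4, 73.8 and 65.9 CPM in WT1 to WT3. As for *Cav1*, KO1 was the lowest KO library and still above every WT library. With a log2 fold change of 1.30 (SE 0.20, adjusted p = 0.0057, edgeR), *Ehd2* passed with each library left out.

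On the TPM scale, *Cav1* made up 82.3%, 94.9% and 92.5% of the summed caveolin TPM in KO1 to KO3, against 70.6%, 73.6% and 65.8% in WT1 to WT3. *Cav3* made up 13.9%, 2.38% and 5.45% in KO1 to KO3, against 25.7%, 21.8% and 30.1% in WT1 to WT3. In every KO library the muscle caveolin was a smaller share of caveolin transcripts than in any WT library. The summed caveolin TPM was 79.7, 170.1 and 163.7 in KO1 to KO3, against 60.7, 47.5 and 45.1 in WT1 to WT3, so the total did not overlap between genotypes either.

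The log2 ratio of *Cav3* to *Cav1* TPM within a library was −2.56, −5.32 and −4.09 in KO1 to KO3, against −1.46, −1.75 and −1.13 in WT1 to WT3. The genotypes did not overlap, and KO1 lay closest to WT. The mean ratio was 2.54 log2 units lower in KO (two-sided exact permutation test over 3 KO and 3 WT libraries, p = 0.1, the smallest p this design allows). Without KO2 the difference was −1.88, and without KO1 it was −3.26.

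**Figure D3:**
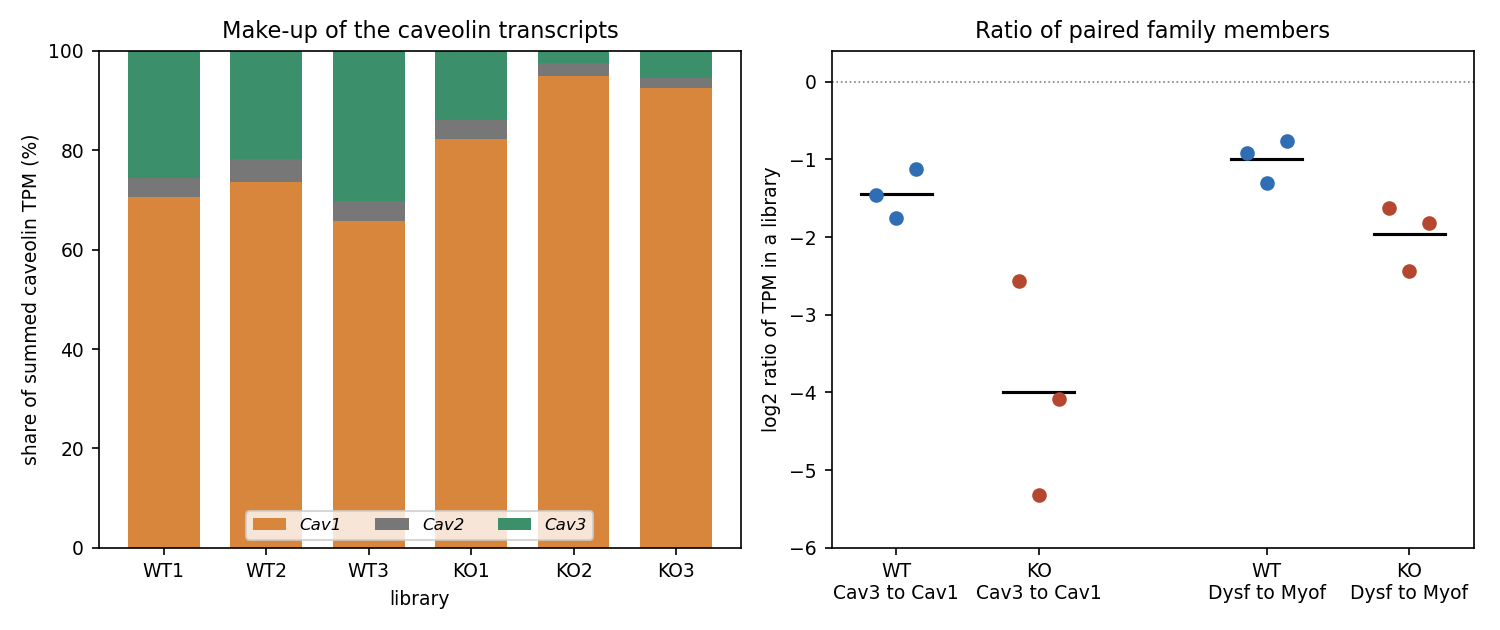
Left, share of each caveolin in the summed caveolin TPM of a library, in percent; right, log2 ratio of TPM within a library for *Cav3* to *Cav1* and *Dysf* to *Myof*, with points as libraries and lines as means. All KO libraries lie below all WT libraries in both ratios, and the KO spread is widest for *Cav3* to *Cav1*.

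For *Cav1*, *Cav3* and *Ehd2*, the sequence before the start site is shown because a muscle-type and a general caveolin and a caveola ATPase can be read beside each other. *Cav1* has another annotated start, at position 17307640, whose window also holds a single E-box and is not printed. The 250 bases upstream were taken from RefSeq's GRCm38.p6 annotation, 5′ to 3′ on the strand of the gene, with the last base next to the annotated start. Capitals mark each E-box, the 6-base pattern CANNTG that basic helix-loop-helix factors such as MyoD and myogenin can bind, read the same on both strands.
Cav1 (chr6:17306085-17306334, plus strand): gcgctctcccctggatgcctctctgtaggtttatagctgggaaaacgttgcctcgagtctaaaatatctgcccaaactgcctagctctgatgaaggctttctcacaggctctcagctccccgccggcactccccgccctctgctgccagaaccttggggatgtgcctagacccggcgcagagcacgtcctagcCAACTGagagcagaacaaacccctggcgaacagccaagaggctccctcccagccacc
Cav3 (chr6:112459255-112459504, plus strand): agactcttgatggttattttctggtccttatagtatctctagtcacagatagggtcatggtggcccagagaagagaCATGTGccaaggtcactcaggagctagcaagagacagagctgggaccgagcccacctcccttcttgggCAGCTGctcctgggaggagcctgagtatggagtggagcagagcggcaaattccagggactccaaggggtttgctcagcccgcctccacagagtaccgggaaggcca
Ehd2 (chr7:15967536-15967785, minus strand): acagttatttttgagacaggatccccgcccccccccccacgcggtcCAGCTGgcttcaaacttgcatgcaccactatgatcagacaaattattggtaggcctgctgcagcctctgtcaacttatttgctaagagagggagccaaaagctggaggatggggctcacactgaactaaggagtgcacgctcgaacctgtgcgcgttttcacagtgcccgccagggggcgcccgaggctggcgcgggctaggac

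The RefSeq table held 13 upstream windows for 9 of the members, all but *Bin1*. CANNTG occurred in 10 of these 13 windows and in 66.2% of all 32851 windows of the same length. The windows are not independent, since some members gave several, and overlapping windows of *Mtm1* share E-boxes. The E-box CAGCTG, one case of CANNTG, occurred in the windows of *Cav3*, beginning 106 bases before the start, and of *Ehd2*, beginning 204 bases before it, and in 13% of all windows. Of these 2 genes with the same pattern, *Ehd2* was called higher in KO and *Cav3* had a log2 fold change below 0. The MEF2 box, searched by name on both strands, occurred in 0 of the 13 windows and in 2.92% of all windows. A match of letters is a description and not a bound site.

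*Bin1* and *Mtm1* belong to the machinery that shapes T-tubules. *Bin1* (ENSMUSG00000024381, chromosome 18) encodes amphiphysin 2, a BAR-domain protein that bends the membrane into tubules. It measured 1031, 705 and 479 CPM in KO1 to KO3, against 1687, 1247 and 1621 CPM in WT1 to WT3. The highest KO library, KO1, lay below the lowest WT library, WT2. The log2 fold change was −1.04 (SE 0.29, 95% interval −1.72 to −0.36, adjusted p = 0.0397, edgeR). The change passed without KO1 (adjusted p = 0.0055) and did not pass when any of the other 5 libraries was left out, where the adjusted p was at most 0.142 and the log2 fold change between −1.18 and −0.80.

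*Mtm1* (ENSMUSG00000031337, chrX:71210767-71315691, plus strand) encodes myotubularin, a phosphatase of phosphoinositide lipids. It measured 16.6, 11.5 and 13.6 CPM in KO1 to KO3, against 13.8, 19.5 and 14.4 CPM in WT1 to WT3, and the genotypes overlapped. KO over WT gave a log2 fold change of −0.20 (95% interval −0.67 to 0.28, adjusted p = 0.519, edgeR).

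Ferlins are large membrane proteins with C2 domains that act in calcium-dependent membrane fusion. *Dysf* (ENSMUSG00000033788, chr6:84008590-84211060, plus strand) encodes dysferlin, the ferlin of membrane repair in mature fibres. It measured 73.9, 49.6 and 70.1 CPM in KO1 to KO3, against 80.5, 74.9 and 84.5 CPM in WT1 to WT3. All 3 KO libraries lay below all 3 WT libraries in CPM, by little for KO1 against WT2. In TPM *Dysf* was at 7.27, 5.21 and 8.76 in KO1 to KO3, against 8.45, 8.43 and 8.47 in WT1 to WT3, so that KO3 was the highest of the 6 libraries and the genotypes overlapped. At −0.31, the log2 fold change (SE 0.17, 95% interval −0.69 to 0.07) did not pass (adjusted p = 0.205, edgeR).

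*Myof* (ENSMUSG00000048612, chr19:37899036-38043577, minus strand) encodes myoferlin, the ferlin of myoblasts that acts in their fusion. It measured 259, 309 and 287 CPM in KO1 to KO3, against 164, 209 and 160.0 CPM in WT1 to WT3. The genotypes did not overlap, with WT2 the highest WT library. KO over WT gave a log2 fold change of 0.68 (SE 0.16, adjusted p = 0.0207, edgeR), and the adjusted p was 0.108 without WT1 and 0.0984 without WT3. With limma on log2(TPM + 0.1) the adjusted p was 0.0582.

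The ratio of the ferlin pair also separated the genotypes on the TPM scale. The log2 ratio of *Dysf* to *Myof* TPM was −1.63, −2.43 and −1.82 in KO1 to KO3, against −0.92, −1.31 and −0.76 in WT1 to WT3. All KO libraries lay below all WT libraries, by 0.97 log2 units on average (two-sided exact permutation test over the same libraries, p = 0.1, the smallest p possible). The summed TPM of the ferlin pair was 29.7, 33.3 and 39.7 in KO1 to KO3, against 24.4, 29.3 and 22.8 in WT1 to WT3, again without overlap.

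*Ano5* (ENSMUSG00000055489, chr7:51511029-51598709, plus strand) encodes an anoctamin, a membrane protein of a family of ion channels and lipid scramblases, and its loss in people causes a limb-girdle muscular dystrophy. It had 74, 16 and 10 reads in KO1 to KO3, against 450, 265 and 440 reads in WT1 to WT3. These counts correspond to 2.07, 0.366 and 0.244 CPM in KO and 13, 8.08 and 11.9 CPM in WT. Every KO library lay far below every WT library, and KO1 held most of the KO reads. Mean CPM was 12.3-fold higher in WT, and the log2 fold change was −3.64 (SE 0.73, 95% interval −5.33 to −1.95, adjusted p = 0.0133, edgeR), the largest change among the 10 members. It was −5.15 without KO1, and the adjusted p was 0.0577 without WT1.

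*Trim72* (ENSMUSG00000042828, chr7:128003989-128011393, plus strand) encodes MG53, a muscle TRIM protein that gathers vesicles at a membrane injury. It measured 183, 67.3 and 72.7 CPM in KO1 to KO3, against 177, 121 and 183 CPM in WT1 to WT3. KO1 equalled the highest WT library at this rounding, and KO2 and KO3 lay below all WT libraries. The log2 fold change was −0.58 (SE 0.38, 95% interval −1.46 to 0.31) and did not pass (adjusted p = 0.303, edgeR). It was −1.20 without KO1 (adjusted p = 0.0039), −0.33 without KO2 (0.564) and −0.35 without KO3 (0.589).

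Among the KO libraries, KO1 had the highest CPM for *Cav3*, *Dysf*, *Bin1*, *Mtm1*, *Ano5* and *Trim72* and the lowest for *Cav1*, *Ehd2* and *Myof*. In TPM, KO3 was instead the highest for *Dysf* (8.76, against 7.27 in KO1) and *Mtm1* (3.09, against 3.01). KO1 was in TPM also the lowest for *Cav2*. Of 11 myotube markers, KO1 was the highest KO library for all but *Ttn*, for example for *Acta1* (7023 CPM, against 2553 in KO2 and 2304 in KO3) and *Myh3* (4146 CPM, against 1007 and 1423). *Ttn* was at 5757, 3143 and 9878 CPM in KO1 to KO3. *Myh3*, *Myh8* and *Actn2* lay below WT in every KO library, and the other markers overlapped. The summed CPM of the list, to which *Ttn* gave more than any other gene in KO2 and KO3, was 25661, 11226 and 17155 in KO1 to KO3, against 18408 to 23004 in WT. Of these 11 markers *Actn2* alone was called, lower in KO (log2 fold change −2.94, adjusted p = 0.0021, edgeR). *Myh8* (−1.73, adjusted p = 0.0562) passed in 6 of 14 alternatives, *Myh3* (−1.18, adjusted p = 0.126) in 4 and *Ckm* (−0.83, adjusted p = 0.170) in 2. The differentiation factor *Myog* was at 1005 to 1709 CPM in KO and 1244 to 1464 CPM in WT (log2 fold change 0.06, adjusted p = 0.863). Without KO1, 7 of the 11 were called lower and 0 higher, *Mymk*, *Myh3*, *Myh8*, *Actn2*, *Ckm*, *Tnnt3* and *Des*, in a fit that called 30.6% of all genes (22.7% with all libraries). The part of differences in myotube content in the results for the members was not tested.

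Lists of markers of other cells that a C2C12 culture could hold also had called genes. Of 8 markers of undifferentiated or reserve cells, *Pax7*, *Id1* and *Hes1* were called higher in KO and *Myf5* and *Spry1* lower, beside 12.1% and 10.6% of all tested genes, and the summed CPM was 98.9 to 193 in KO and 103 to 110.3 in WT. Of 6 cycling cell markers *Rrm2* was called higher, and the sum was 497 to 555 CPM in KO and 254 to 319 CPM in WT. The separation of the sums rests on *Rrm2*, at 307, 156 and 212 CPM in KO1 to KO3, against 73.0, 52.9 and 70.9 CPM in WT1 to WT3. *Mki67*, *Top2a*, *Ccnb1* and *Cdk1* overlapped between genotypes, and *Mcm5* overlapped in TPM but not in CPM. Of 7 fibroblast and adipocyte markers, 4 were tested and *Pdgfra* and *Ly6a* were called higher. The sum of the list was 61.8 to 169.6 CPM in KO and 29.0 to 44.4 CPM in WT. *Ly6a* was at 57.6, 84.2 and 33.4 CPM in KO1 to KO3, against 7.98, 8.26 and 9.54 CPM in WT1 to WT3. The separation of the sum in KO2 and KO3 rests on *Ly6a*. *Dcn* was at 90.6 CPM in KO1 and at most 17.7 CPM elsewhere, and the adipocyte genes *Fabp4* and *Adipoq* were at or near 0. With each library left out in turn, *Rrm2* and *Ly6a* passed in 6 of 6 fits, *Id1* in 5, *Spry1* in 4, *Pax7* in 3, *Myf5* and *Pdgfra* in 2 and *Hes1* in 1. The fit without KO1 called 30.6% of all genes. In it 8 of 8 undifferentiated or reserve cell markers were called (6 higher, 2 lower). It also called 4 of 6 cycling cell markers and 2 of 4 tested fibroblast and adipocyte markers, with 0 lower in these lists. *Cav1* and *Cav2* are expressed in many such cells, and the part of these markers in the members' results was not tested.

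Ranked by mean TPM in WT, *Bin1* (472 ± 63.2, SD, n = 3) stood first, followed by *Trim72* (43.5 ± 8.01), *Cav1* (35.8 ± 6.64), *Myof* (17.0 ± 3.40), *Cav3* (13.2 ± 2.63), *Ehd2* (8.98 ± 1.13), *Dysf* (8.45 ± 0.018), *Mtm1* (3.24 ± 0.76), *Cav2* (2.11 ± 0.25) and *Ano5* (0.95 ± 0.22). The neighbours *Trim72* and *Cav1*, *Myof* and *Cav3*, and *Ehd2* and *Dysf* overlapped in this order. In KO *Bin1* stayed first (225 ± 61.7) and *Cav1* came second (126 ± 52.7), with the ranges of both separate from their neighbours. *Trim72* (27.6 ± 14.8), *Myof* (27.2 ± 4.36) and *Ehd2* (22.4 ± 7.16) overlapped in KO, as did *Cav3* (8.02 ± 3.62) and *Dysf* (7.08 ± 1.78), and *Cav2* (3.65 ± 0.82) and *Mtm1* (2.77 ± 0.48), and *Ano5* was last (0.071 ± 0.078). *Cav1* TPM was 22.4%, 76.1% and 88.6% of *Bin1* TPM in KO1 to KO3, against 8.02%, 8.58% and 6.23% in WT1 to WT3.

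The members lie on 5 chromosomes (6, 7, 18, 19 and X). Within 5 Mb on each side, the median log2 fold change of the other tested genes was between −0.04 around *Cav3* and 0.17 around *Bin1*, so none of these neighbourhoods had a median as far from 0 as the member's own value. It was 0.10 over 21 genes around *Cav1*, of which 6, *Cav2* among them, were called higher and 2 lower. Of all tested genes 12.1% were called higher and 10.6% lower. The median was also 0.10 over 27 genes around *Ano5*, of which 74.1% had a log2 fold change above 0, 4 were called higher and 3 lower. Genes on the opposite strand overlap *Cav1*, *Cav2*, *Dysf*, *Bin1* and *Trim72*, and had at most 39 reads in any library.

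Partner genes of the same structures were read from 4 lists with 63 genes in all, of which 55 were tested. In these lists 8 genes were called higher in KO and 8 lower, where 12.1% of all tested genes were called higher and 10.6% lower. The median log2 fold change was −0.04, beside 0.03 over all tested genes.

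Among 11 caveola partners, 2 were called higher and 1 lower, against 12.1% and 10.6% of all tested genes. *Cavin3*, a protein of the caveola coat, measured 40.7, 81.9 and 52.5 CPM in KO1 to KO3, against 22.4, 29.1 and 28.0 CPM in WT1 to WT3 (log2 fold change 1.14, adjusted p = 0.019, edgeR). *Ehd3*, a relative of *Ehd2* that acts in endosome recycling, measured 36.9, 61.1 and 58.4 CPM in KO and 12.9, 23.6 and 11.5 CPM in WT (log2 fold change 1.70, adjusted p = 0.0099). Both lay above WT in every KO library, as *Cav1* and *Ehd2* did. *Flot2*, a flotillin of membrane microdomains, fell by 0.68 on the log2 scale (adjusted p = 0.0213). With each library left out in turn, *Ehd3* passed in 5 of 6 fits, *Cavin3* in 4 and *Flot2* in 3. The core coat gene *Cavin1* was at 329.6 to 411 CPM in KO and 258 to 275 CPM in WT and did not pass (log2 fold change 0.45, adjusted p = 0.056). The muscle cavin *Cavin4* was at 173 to 272 CPM in KO and 259 to 287 CPM in WT and did not pass (log2 fold change −0.36, adjusted p = 0.189). In TPM all KO libraries lay below all WT libraries for *Cavin4*. It passed in 1 of 14 alternatives, the edgeR fit without KO1 (log2 fold change −0.56, adjusted p = 0.0264).

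Among 16 T-tubule and phosphoinositide partners, of which 15 were tested, 1 was called higher and 3 lower, against the same 12.1% and 10.6%. *Dnm2*, the dynamin that pinches off membrane necks and is mutated in centronuclear myopathy, measured 174, 121 and 113 CPM in KO1 to KO3, against 384, 399 and 325 CPM in WT1 to WT3. No KO library came near WT, and the log2 fold change of −1.44 (SE 0.20, adjusted p = 0.0039, edgeR) passed with each library left out. *Pik3c2b*, a kinase that makes phosphoinositides, fell by 1.09 on the log2 scale (adjusted p = 0.0166), and *Stac3*, an adaptor of excitation-contraction coupling, fell by 0.69 (adjusted p = 0.020). *Snx9*, a sorting nexin with a BAR domain, rose by 0.47 (adjusted p = 0.0307), and passed in 1 of the 6 fits that leave out a library. *Pik3c2b* and *Stac3* each passed in 4 of these 6 fits. The junctophilins, which tie T-tubules to the sarcoplasmic reticulum, did not pass: *Jph1* had a log2 fold change of −0.92 (adjusted p = 0.082) and *Jph2* one of −0.32 (adjusted p = 0.499). *Jph1* passed in 6 of 14 alternatives, among them DESeq2 (adjusted p = 0.0213) and the fit without KO1 (adjusted p = 0.000724), and its genotypes did not overlap in TPM. *Jph2* passed without KO1 (log2 fold change −0.83, adjusted p = 0.0074) and was at −0.12 without KO2 (0.812) and −0.11 without KO3 (0.845).

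Among 23 membrane repair partners, 4 were called higher and 3 lower, where 12.1% and 10.6% of all tested genes were. *S100a10*, the light chain bound by annexin A2, measured 354, 846 and 469.6 CPM in KO1 to KO3, against 213, 252 and 207 CPM in WT1 to WT3 (log2 fold change 1.31, adjusted p = 0.0223, edgeR). *S100a11* (log2 fold change 0.94, adjusted p = 0.0104), the annexin gene *Anxa4* (0.75, adjusted p = 0.0419) and *Ahnak*, which encodes a giant scaffold protein (0.93, adjusted p = 0.0420), were higher as well. The genes called lower were *Capn1*, a calcium-activated protease (−1.23, adjusted p = 0.0116), *Smpd1*, the acid sphingomyelinase (−0.93, adjusted p = 0.0114), and *Snap23*, a SNARE of vesicle fusion (−0.68, adjusted p = 0.0095). With each library left out in turn, *S100a11*, *Capn1*, *Smpd1* and *Snap23* passed in 5 of 6 fits, *S100a10* in 3, *Ahnak* in 2 and *Anxa4* in 1. In TPM *Ahnak* overlapped between genotypes. *Anxa2* itself overlapped between genotypes, at 468 to 733 CPM in KO and 401 to 694 CPM in WT (log2 fold change 0.25, adjusted p = 0.516).

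Of 13 other ferlins and anoctamins 6 were tested, 1 was called higher and 1 lower, beside 12.1% and 10.6% of all tested genes. *Ano1*, a calcium-activated chloride channel, measured 16.2, 9.07 and 8.54 CPM in KO1 to KO3, against 1.42, 1.89 and 1.46 CPM in WT1 to WT3 (log2 fold change 2.82, SE 0.32, adjusted p = 0.0022, edgeR). *Ano3*, a relative of *Ano5*, measured 0.280, 0.618 and 0.537 CPM in KO1 to KO3, against 7.14, 8.26 and 15.2 CPM in WT1 to WT3 (log2 fold change −4.39, SE 0.43, adjusted p = 0.0015). Both passed with each library left out. *Ano6*, a scramblase and the family member with the most reads here, was at 153 to 180.0 CPM in KO and 154 to 194 CPM in WT (log2 fold change −0.03, adjusted p = 0.887).

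**Figure D4:**
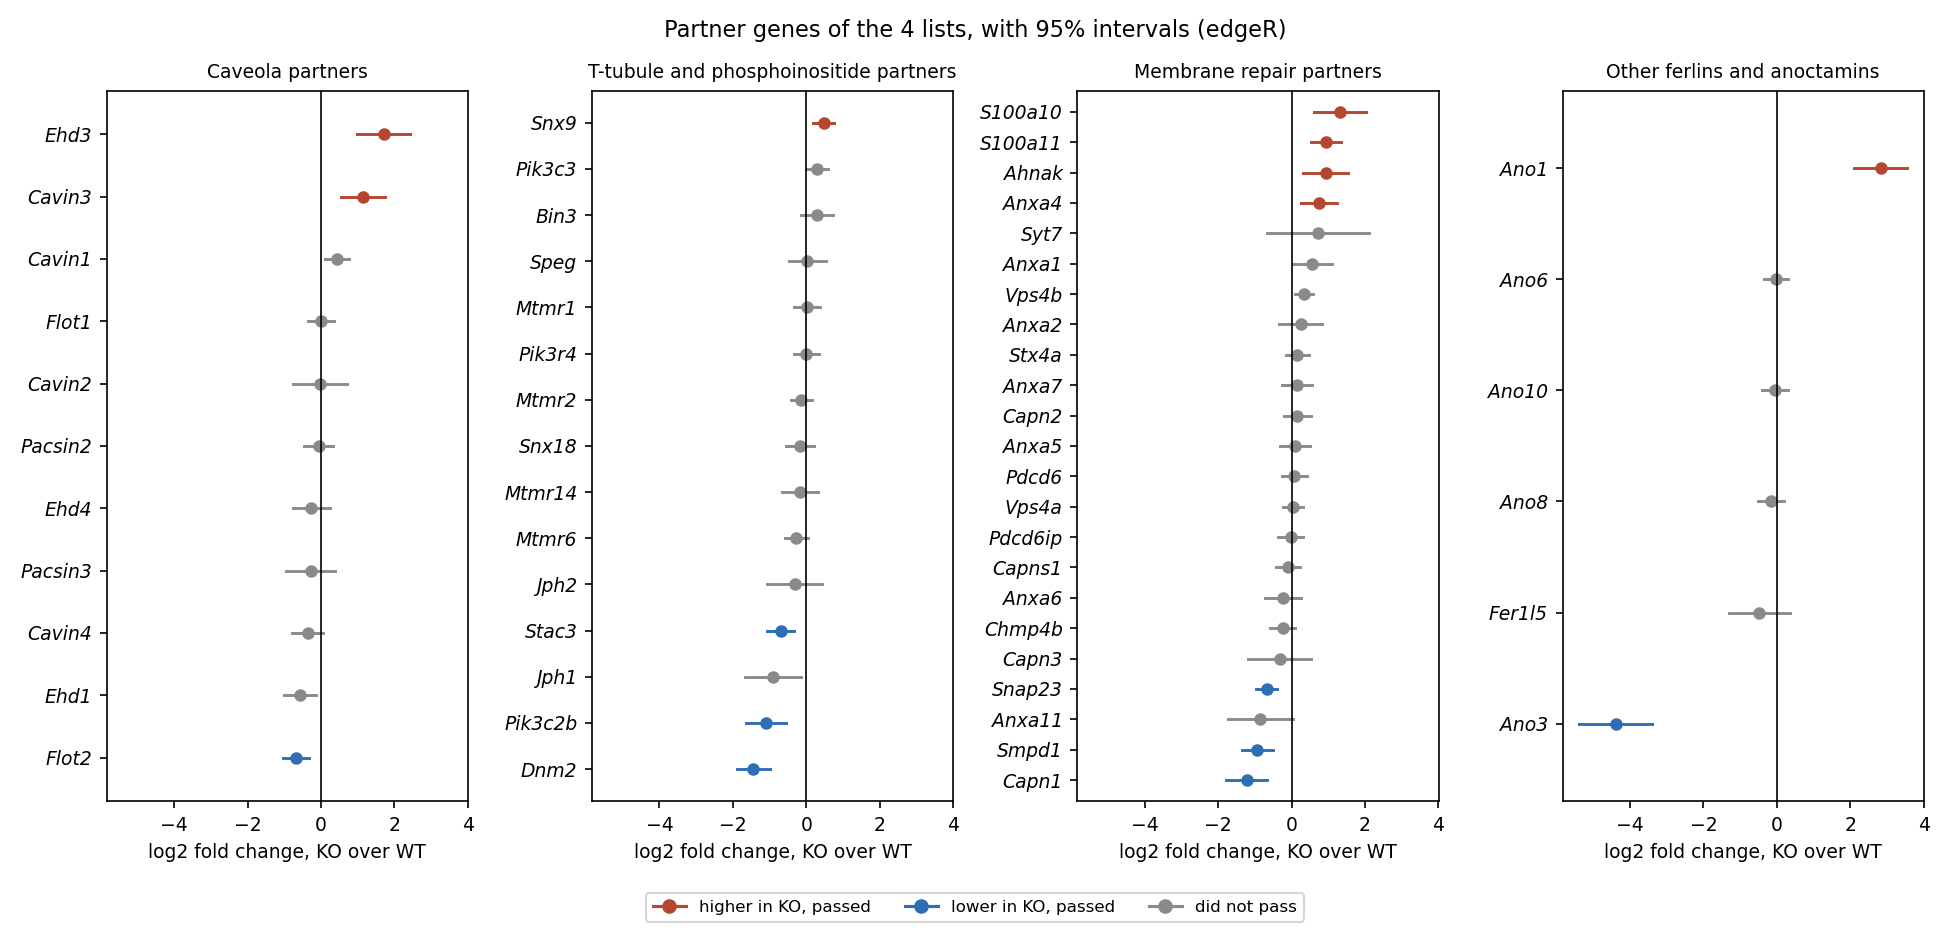
Log2 fold change of KO over WT for the 55 tested partner genes in their 4 lists, from edgeR, with 95% intervals; colours mark genes that passed. In every list most genes did not pass, and the outlying estimates are *Ano3* (−4.39) and *Ano1* (2.82).

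The genes whose level across the 6 libraries was most like that of *Cav3* were sought among 9106 genes whose log2 CPM averaged 3 or more, by Pearson's r of log2 CPM over 6 libraries, a description to which the genotype difference and KO1 contribute. They included *Naa30* (r = 0.991), *Coro6* (0.987), *Ivns1abp* (0.987) and *Akap6* (0.986). *Coro6*, a coronin that binds actin, measured 51.3, 18.3 and 35.3 CPM in KO1 to KO3, against 54.0, 41.9 and 56.1 CPM in WT1 to WT3. As for *Cav3*, KO1 lay in the WT range and KO2 was the lowest library.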

How the data were processed

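The 3 KO and 3 WT libraries were made from total RNA after removal of ribosomal RNA. Reads were aligned by the authors with STAR, and featureCounts gave the deposited raw counts per gene, of which all 6 columns were used and 0 left out. TPM values were read from the StringTie files that the authors deposited for each library. The methods name the build GRCm39 and the submitters' processing notes mm9, while the deposited gene coordinates fit GRCm38, which is used here. Strand use in counting is not given in the sources used here.

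Members, lists and tests were chosen with earlier results of these data known. Counts were TMM-scaled, filtered with filterByExpr (14828 genes kept) and tested for genotype with edgeR 4.0.16 (two-sided quasi-likelihood test, R 4.3.3), adjusted over all tested genes by Benjamini-Hochberg with a threshold of 0.05. Ratios used exact permutation tests. Named genes were all members, every called gene of the 4 partner lists, the 5 genes most like *Cav3* and *Hnrnpa2b1*, and other partner and marker genes named beside them were chosen after their values were seen. A single one of the genes most like *Cav3* is not reported here. *Cavin1* to *Cavin4*, *Mymk* and *Mymx* appear under older symbols in the files. Alternatives were DESeq2 1.42.0, other scalings, no filter, limma 3.58.1 on log2(TPM + 1) or log2(TPM + 0.1) with TPM of at least 1 in 3 libraries or without a filter, a replicate block, and each library left out. The steps were tested on simulated data.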

Additional observations from a re-analysis of the deposited data

How the results depend on the processing

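The 10 members kept the sign of their log2 fold change under all alternatives that gave a value (138 in all), and 115 of these kept their side of the threshold. In place of 6 members, 1 passed with limma on log2(TPM + 1) without a filter (*Ano5*), and 6 partner genes in place of 16, where 3.87% of all genes passed. *Ano5* was under the filter of the other TPM fits. These called 5 members with log2(TPM + 1), where 20.2% of all genes passed, and 4 with log2(TPM + 0.1), where 18.1% passed. The fit on log2(TPM + 0.1) did not call *Myof* (adjusted p = 0.0582). Leaving out 1 library gave 2 to 8 members and 4 to 24 partner genes: the lowest, without WT1 (2 members, *Cav1* and *Ehd2*, and 4 partner genes), came where 6.01% of all genes passed, without WT3 it was 3 members and 7 partner genes (8.43% of all genes), and the highest was without KO1 (30.6% of all genes, against 22.7% with all libraries). *Cav3* and *Trim72* also passed in edgeR without a filter on low counts (adjusted p = 0.0130 and 0.0242). Scaling by library totals alone moved the median of all genes by 0.12 (log2) and left 6 members called, where 23.4% of all genes passed. The difference in the ratio of *Cav3* to *Cav1* was −3.26 to −1.88, and that of *Dysf* to *Myof* −1.13 to −0.73, with 1 library left out. Pairing by replicate number was looked at in log2 CPM after each gene's genotype mean was subtracted. These deviations correlated at 0.13, −0.11 and 0.01 between libraries with the same number. Between libraries with different numbers they correlated at −0.32 to 0.27, so no pairing by number was seen. With a replicate block 5 members (without *Cav2*, adjusted p = 0.0579) and 15 partner genes passed, with 17.0% of all genes. With 10 to 74 reads in KO, *Ano5* is the member whose level is set least precisely.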

Other observations

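Of the 55 tested partner genes, 21 did not overlap between genotypes in CPM, beside 44.3% of all tested genes, and 5 of these did not pass the test: *Cavin1*, *Ehd1*, *Pik3c3*, *Anxa1* and *Vps4b*. In TPM *Pik3c3* and *Anxa1* overlapped. *Ehd1*, a recycling ATPase related to *Ehd2*, was at 140.4, 123 and 85.4 CPM in KO1 to KO3, against 187, 170.2 and 161 CPM in WT1 to WT3 (log2 fold change −0.57, adjusted p = 0.065, edgeR), opposite in sign to *Ehd2* and *Ehd3*. Its adjusted p was 0.0189 without KO1 and 0.0956 to 0.206 with another library left out. *Ehd1* passed in 4 of 14 alternatives. Beside the fit without KO1, these were DESeq2 (adjusted p = 0.0411), edgeR without a filter on low counts (0.0134) and limma on log2(TPM + 1) (0.0386). *Jph1* was at 156 CPM in KO1, within the WT range of 154 to 202 CPM, and at 68.2 and 65.4 CPM in KO2 and KO3, the arrangement also seen for *Cav3* and *Trim72*. Its log2 fold change was −1.45 without KO1 (adjusted p = 0.000724), −0.72 without KO2 (0.178) and −0.70 without KO3 (0.204).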
